A study of Homo sapiens with 5 samples.

Results

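The genes described here encode the small-subunit processome and the factors that assemble the 40S ribosomal subunit. The list held 46 genes, chosen by name, and each was read from its brightest probe among probes detected (detection p under 0.05) on at least 2 of 4 independent arrays. Of the 46 genes, 45 had a probe in the platform annotation and 43 were measured, out of 12080 genes measured in all. The values that chose a probe were its detection p and its brightness over the 4 arrays. The difference between treatments was not used directly, but the gene UTP20 met the detection rule only through the controls. The list was also proposed with results of this comparison known. All tests below are therefore those of the fit across all probes, and counts over the list are a description.

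The cells were MDA-MB-231, an established human breast cancer line that the labels class as basal and estrogen receptor negative. Control cultures received sterile water and treated cultures 10 µM fluvastatin, a statin that inhibits HMG-CoA reductase in the mevalonate pathway, and RNA was taken after 24 h. All cultures were of this 1 line in the same serum-containing medium, and the labels do not say whether replicates were separate cultures, so the spread behind the p-values is that of these samples alone and may be technical. The protocol field gives the mock treatment for every sample, and groups therefore rest on titles and characteristics.

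Total RNA was hybridised to Illumina bead arrays as biotin-labelled cRNA. The deposit lists 3 control and 2 fluvastatin samples, but control replicate 2 equalled the mean of control replicates 1 and 3 in 47231 of 47231 probes (to within 1e-06). It was left out, and 2 controls were compared with 2 fluvastatin arrays. Between 43.0% and 46.9% of probes were detected on the 4 arrays. The defining markers VIM, CD44, CAV1, EGFR, MSN and AXL were detected on all 4 arrays and ESR1, PGR and CDH1 on 0, while EPCAM and ERBB3, listed as low in this line, were detected on all 4. Of markers of other cell types, PTPRC and KRT5 were detected on 0 arrays, COL1A1 on 2 and PECAM1 on 3. Of the sterol response genes measured, HMGCS1 (log2 fold change 1.87), INSIG1 (1.02) and SQLE (0.97) rose, and IDI1 (0.21) did not pass the test.

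Ribosome assembly starts in the nucleolus, where RNA polymerase I transcribes a long precursor rRNA. The small-subunit processome forms on the 5′ part of this precursor around the U3 small nucleolar RNA and helps to fold, modify and cleave it, so that the precursor of the small-subunit rRNA is released. The resulting pre-40S particle is trimmed and checked on its way to the cytoplasm. Many ribosome assembly genes are textbook targets of the transcription factor MYC, which binds the E-box CACGTG with its partner MAX.

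The start regions of the genes are shown first, because their letters do not depend on the arrays. The RefSeq promoter table (GRCh38.p14) held 300 bases, 250 before and 50 after the gene start, for 40 of the 46 genes; RRP12, UTP23, DCAF13, DDX52, NOL10 and MPHOSPH10 were not matched. The E-box CACGTG, which reads the same on both strands, stood in 20 of the 40 (50%). It stood in 953 of 9621 other genes tested (9.91%) and in 7.28% of all 27305 promoters of the table. The GC box GGGCGG, searched on both strands, stood in 33 of the 40 (82.5%), against 68.0% of the other genes tested. The median GC content was 61.0% in these genes and 65.0% in the other genes tested. The 5 genes with the smallest p in the comparison below among those with an E-box are printed 5′ to 3′, each on its own strand, with the E-box in capitals.
PNO1, chr2:68157638-68157937, plus strand: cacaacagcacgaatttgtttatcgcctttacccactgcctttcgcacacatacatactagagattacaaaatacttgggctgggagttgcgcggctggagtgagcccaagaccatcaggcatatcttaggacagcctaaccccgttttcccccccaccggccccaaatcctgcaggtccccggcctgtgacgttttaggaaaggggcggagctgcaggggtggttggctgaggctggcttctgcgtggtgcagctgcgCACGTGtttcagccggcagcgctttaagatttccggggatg
BYSL, chr6:41921249-41921548, plus strand: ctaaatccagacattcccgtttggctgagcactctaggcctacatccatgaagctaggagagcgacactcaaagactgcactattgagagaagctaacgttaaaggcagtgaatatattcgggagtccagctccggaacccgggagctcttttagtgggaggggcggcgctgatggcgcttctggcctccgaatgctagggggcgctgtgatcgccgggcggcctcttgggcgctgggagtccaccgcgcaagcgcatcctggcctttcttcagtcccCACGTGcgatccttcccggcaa
NOL6, chr9:33473875-33474174, minus strand: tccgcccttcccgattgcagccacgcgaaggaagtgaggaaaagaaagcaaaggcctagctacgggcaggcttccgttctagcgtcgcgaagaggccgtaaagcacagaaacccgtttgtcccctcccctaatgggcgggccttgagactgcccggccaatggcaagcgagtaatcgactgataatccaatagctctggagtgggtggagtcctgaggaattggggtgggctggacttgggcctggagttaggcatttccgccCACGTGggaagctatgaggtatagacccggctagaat
UTP20, chr12:101279855-101280154, plus strand: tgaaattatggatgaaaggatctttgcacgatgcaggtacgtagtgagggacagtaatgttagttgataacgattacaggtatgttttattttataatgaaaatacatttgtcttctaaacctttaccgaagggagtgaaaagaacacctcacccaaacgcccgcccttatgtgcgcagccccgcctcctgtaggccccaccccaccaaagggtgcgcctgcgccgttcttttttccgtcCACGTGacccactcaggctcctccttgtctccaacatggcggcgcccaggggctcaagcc
UTP4, chr16:69132399-69132698, plus strand: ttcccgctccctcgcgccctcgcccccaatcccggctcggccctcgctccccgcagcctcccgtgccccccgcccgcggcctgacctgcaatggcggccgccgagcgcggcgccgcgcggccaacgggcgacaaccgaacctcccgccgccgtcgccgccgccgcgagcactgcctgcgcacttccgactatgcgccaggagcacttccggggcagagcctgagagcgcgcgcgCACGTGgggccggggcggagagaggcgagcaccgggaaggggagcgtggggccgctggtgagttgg

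These E-boxes lay close to the gene start. Counted from its first base, with 1 as the first base of the gene, the motif began at 10 in PNO1, 29 in BYSL, 14 in NOL6, -10 in UTP20 and -16 in UTP4. Over the 40 promoters, 14 of the E-boxes began in the first 50 bases of the gene and 4 in the 50 bases before it. That made 35.0 motifs per 100 promoters in the first 50 bases, against 1.03 per 100 in the other genes tested, where the bin with the most motifs was the 50 bases before the start (3.15 per 100). A match is a description of the letters and not a binding site shown in these cells.

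**Figure D1:**
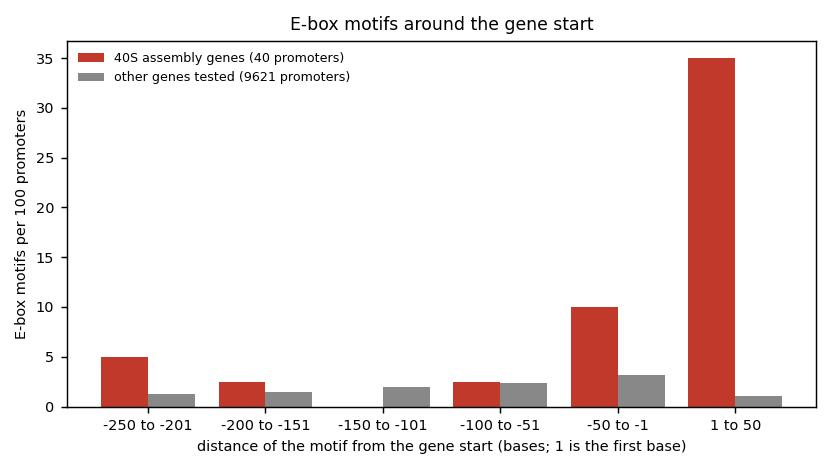
E-box CACGTG motifs per 100 promoters (vertical axis) in bins of 50 bases from the gene start (horizontal axis), for 40 promoters of 40S assembly genes (red) and 9621 of the other genes tested (grey). The bin of the first 50 bases of the gene stands at 35.0 for the 40S assembly genes and at 1.03 for the others.

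With fluvastatin, 25 of the 43 measured genes fell, 0 rose and 18 did not pass the test (limma, Benjamini-Hochberg adjusted p under 0.05 over all 21986 probes kept). Among all genes tested, 9.65% fell and 10.5% rose. The falls ran from 1.67-fold (DDX52) to 4.15-fold (PNO1), and 14 of the 25 were at least 2-fold. Both counts include UTP20, which met the detection rule only through the controls. At least 2-fold falls past the threshold made up 4.35% of all genes. The sizes depended on the background step, with 7 genes at least 2-fold lower without background correction (2.24% of all genes) and 8 with the authors' values (2.42%). Without background correction the folds of 5 genes were smaller by over 1.5 times, with log2 fold changes of -0.90 for UTP15, -0.45 for PWP2, -0.52 for RRP9, -0.62 for RCL1 and -0.74 for UTP20, and all 25 genes stayed past the threshold. The log2 fold change was below 0 in 40 of the 43 genes and in 48.8% of all genes. The median log2 fold change was -0.86 over the 43 genes and 0.01 over all genes. Arrays normalized to the same distribution give relative amounts, so a change in total RNA per cell would not show. In RNA pooled over cells, less RNA of these genes per cell cannot be told apart from fewer cells that express them. At an unadjusted p under 0.05, 1 of the 43 genes was higher, UTP25, against 20.8% of all genes.

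Both fluvastatin arrays lay below both control arrays in 36 of the 43 genes and above them in 3, while 4 genes overlapped. The first pattern was found in 33.7% of all genes and the second in 35.9%. The median deviation of the 43 genes from the control mean was -0.80 on fluvastatin replicate 1 and -0.93 on replicate 2, against 0.02 and 0.01 for all genes. The controls differed from each other by a median of 0.06 in absolute value over these genes and the fluvastatin arrays by 0.24, against 0.11 and 0.24 for all genes.

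**Figure D2:**
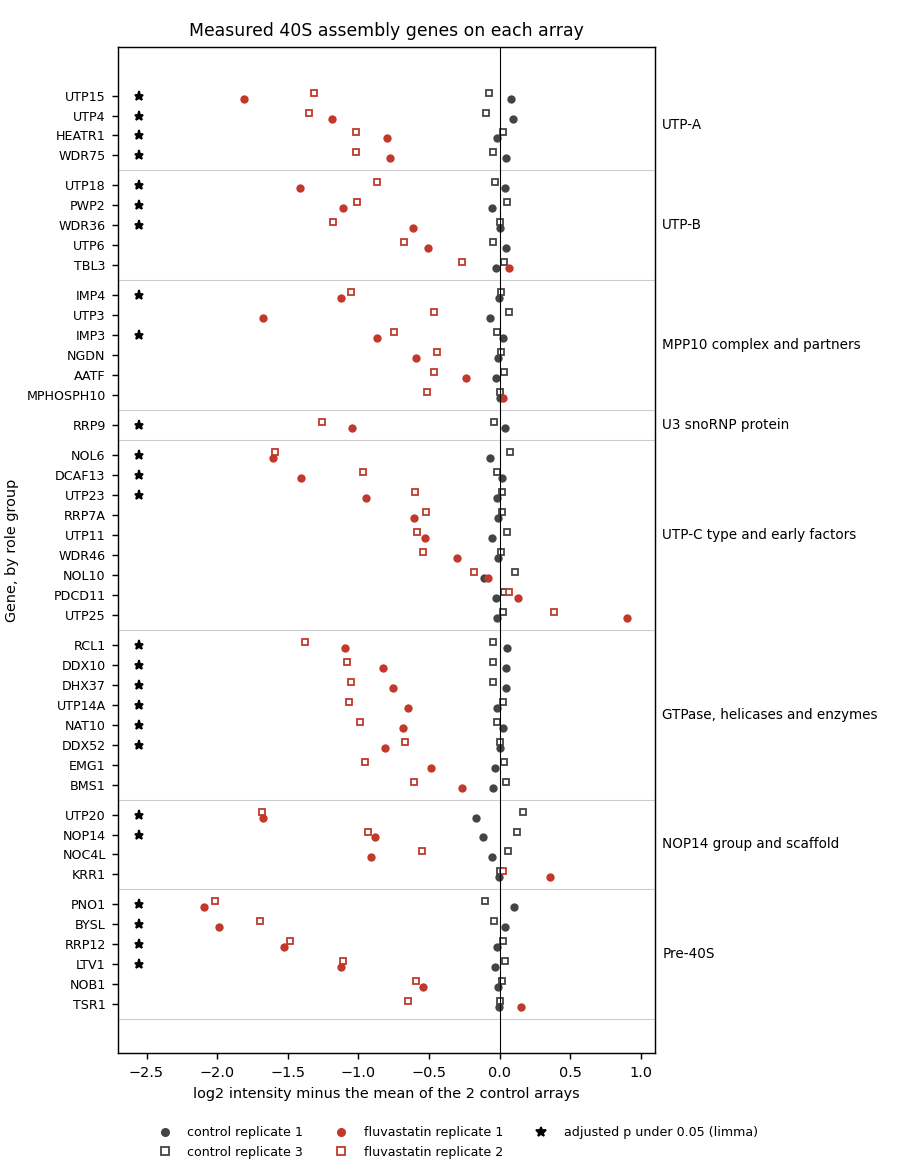
Log2 intensity minus the mean of the 2 control arrays (horizontal axis) for the 43 measured 40S assembly genes by role group (vertical axis). Grey marks are controls, red marks fluvastatin, circles replicate 1, squares control replicate 3 or fluvastatin replicate 2, and a star marks an adjusted p under 0.05. In 36 genes both red marks lie left of both grey marks; UTP25 stands farthest to the right.

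The number of genes past the threshold depended on the controls, which lay closer together than the fluvastatin arrays (median gap 0.11 against 0.24 over all genes). The median log2 fold change of the 43 genes moved little, to -0.84 without control replicate 1 and -0.83 without control replicate 3. Without control replicate 1, and likewise without control replicate 3, 5 of the 43 genes fell, against 1.16% and 1.18% of all genes. PNO1, BYSL, NOL6 and RRP12 passed in every alternative. UTP20 passed in those in which it was measured, but it met the detection rule only through the controls. It was not measured under the stricter rule of a detection p under 0.01 on all 4 arrays. Median scaling of the arrays on all probes moved the median of all genes up by 0.21 on the log2 scale. With it 15 of the 43 genes were lower (4.88% of all genes), 14 of them among the 25 and UTP3 in addition. In that fit the prior degrees of freedom were infinite, against 3.72 in the main fit. All probes then shared the same variance, so its calls followed the size of the change alone. The probe calls were 1899 higher and 1823 lower in the main setting, 3353 and 961 with median scaling on all probes and 1409 and 2031 with median scaling on the probes kept.

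Among the 43 genes the fluvastatin arrays lay farthest apart in UTP3, at 7.13 on replicate 1 and 8.34 on replicate 2, and next in TSR1, at 8.54 and 7.74; both were named after their values were seen.

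**Figure D3:**
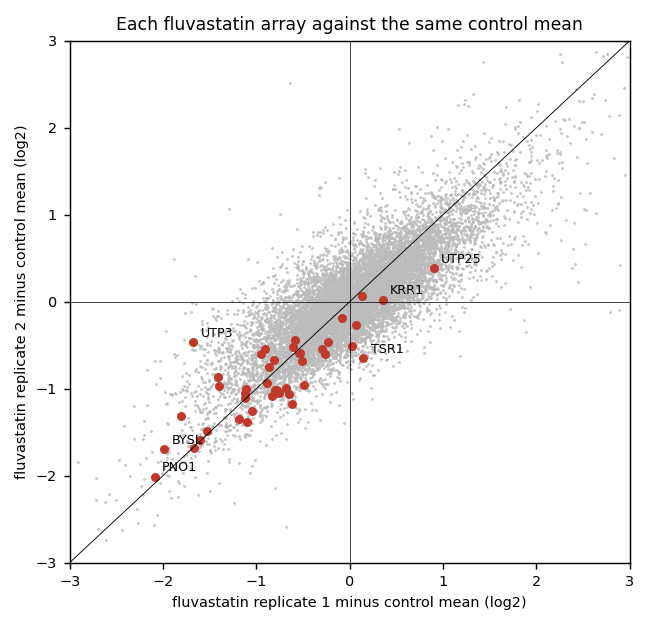
Deviation from the control mean on the log2 scale on fluvastatin replicate 1 (horizontal axis) and replicate 2 (vertical axis) for the 43 genes (red) and all genes (grey; 28 lie outside the plotted range). Both axes share the same control mean, so the points are not independent; the line marks equal values, and UTP3 and TSR1 lie away from it on opposite sides.

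Levels are given below as log2 intensities, for control replicates 1 and 3 and then, after "against", for fluvastatin replicates 1 and 2. Counts by role group or list stand beside the 9.65% of all genes that fell and the 10.5% that rose. The UTP-A group binds the nascent precursor rRNA first, and in human cells its members are also tied to rRNA transcription. All 4 measured members fell; WDR43, the fifth on the list, had no probe in the annotation. UTP15, a WD-repeat subunit, read 7.43 and 7.28 against 5.54 and 6.04, a log2 fold change of -1.56 ± 0.21 (SE; adjusted p = 0.0137). UTP4 (cirhin), the gene mutated in North American Indian childhood cirrhosis, read 10.69 and 10.49 against 9.41 and 9.24, a change of -1.27 ± 0.17 (adjusted p = 0.0130). In both genes the groups were well apart, by more than the gap between arrays of a group. HEATR1, a large HEAT-repeat scaffold, read 9.21 and 9.25 against 8.43 and 8.21, a change of -0.91 ± 0.16 (adjusted p = 0.0228). WDR75 fell by 0.90 on the log2 scale (adjusted p = 0.0247).

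UTP-B, a 6-protein complex that chaperones the 5′ end of the precursor and the U3 RNA, had 3 of 5 measured members lower. PWP2, a WD-repeat subunit, read 6.11 and 6.21 against 5.05 and 5.15, a log2 fold change of -1.06 ± 0.16 (adjusted p = 0.0151). UTP18 read 9.31 and 9.25 against 7.87 and 8.41, a change of -1.14 ± 0.22 (adjusted p = 0.0261). WDR36, a gene that has been linked to glaucoma, read 9.16 and 9.15 against 8.54 and 7.98, a change of -0.90 ± 0.22 (adjusted p = 0.0475). UTP18 and WDR36 thus fell on both arrays but to unequal depth. UTP6 had a change of -0.59 (adjusted p = 0.0570), with its groups apart, and TBL3 of -0.10 (adjusted p = 0.718), with its groups overlapping. WDR3 was below the detection rule, with 1 of 4 arrays detected (detection p 0.0039, then 0.0662 on the next array). Just inside the rule was UTP20, detected on both controls.

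RRP9, the WD-repeat protein that marks the U3 snoRNP, read 6.42 and 6.35 against 5.34 and 5.12. The log2 fold change was -1.15 ± 0.16 (adjusted p = 0.0147), and the groups did not overlap.

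In the MPP10 complex and its partners, which sit near the U3 RNA and the cleavage sites, 2 of 6 genes passed. IMP4, an RNA-binding subunit, read 11.59 and 11.60 against 10.47 and 10.54, a log2 fold change of -1.09 ± 0.15 (adjusted p = 0.0138). Its partner IMP3 read 12.00 and 11.96 against 11.11 and 11.23, a change of -0.81 ± 0.15 (adjusted p = 0.0255). Both subunits were close between arrays of a group. MPHOSPH10, the protein that gives the complex its name, read 8.93 and 8.93 against 8.96 and 8.42. Its groups overlapped, since fluvastatin replicate 1 stood at the control level (log2 fold change -0.24, adjusted p = 0.464). NGDN, a partner of the complex, read 10.17 and 10.19 against 9.58 and 9.73, a change of -0.52 (adjusted p = 0.0744). Dimmer probes of NGDN were at -0.31 (adjusted p = 0.205) and -0.16 (adjusted p = 0.489). The mean of its probes was at -0.33 (adjusted p = 0.119). The groups of NGDN were apart, as were those of the nucleolar protein AATF (-0.35, adjusted p = 0.188). UTP3 read 8.74 and 8.88 against 7.13 and 8.34, a change of -1.07 ± 0.39 (adjusted p = 0.112), with the largest SE of the 43 genes.

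Among the UTP-C type and other early factors, 3 of 9 measured genes fell. NOL6, the human counterpart of yeast Utp22, read 10.26 and 10.40 against 8.73 and 8.74. Its log2 fold change was -1.60 ± 0.16, a 3.03-fold fall (adjusted p = 0.00771), and a dimmer second probe also fell (-0.97, adjusted p = 0.0234). DCAF13, the counterpart of yeast Sof1, read 8.37 and 8.34 against 6.95 and 7.39, a change of -1.19 ± 0.20 (adjusted p = 0.0197). UTP23, a PIN-domain protein, read 8.31 and 8.34 against 7.37 and 7.72, a change of -0.78 ± 0.18 (adjusted p = 0.0409). A dim second probe of UTP23 was at -0.39 (adjusted p = 0.316) with its groups overlapping, and with the mean of the kept probes UTP23 did not pass (-0.58, adjusted p = 0.0805). On the brightest probe of each of these 3 genes, both fluvastatin arrays lay below both controls, a pattern found in 33.7% of all genes.

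Of the rest of these early factors, RRP7A, which partners with NOL6, was at -0.56 (adjusted p = 0.0568), UTP11 at -0.56 (adjusted p = 0.0604), WDR46 at -0.42 (adjusted p = 0.131) and NOL10 at -0.13 (adjusted p = 0.604). PDCD11, the counterpart of yeast Rrp5, which acts in both subunits' assembly, read 5.54 and 5.60 against 5.70 and 5.64, a change of 0.10 (adjusted p = 0.686). UTP25 read 7.44 and 7.48 against 8.36 and 7.84. Its change of 0.64 ± 0.21 (adjusted p = 0.0931) was the highest value on the list, and both fluvastatin arrays stood above both controls. It passed as higher in 3 of 15 alternatives, with median scaling on all probes (0.91), with all 5 columns (0.64) and without fluvastatin replicate 2 (0.90). ESF1 was detected on 0 arrays (lowest detection p 0.470).

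The GTPase, the helicases and the modifying enzymes drive the remodelling and modification steps, and 6 of these 8 genes fell. RCL1, a cyclase-like protein that partners with the GTPase BMS1, read 6.77 and 6.67 against 5.63 and 5.34, a log2 fold change of -1.24 ± 0.17 (adjusted p = 0.0141). The helicase DDX10 read 10.12 and 10.03 against 9.24 and 8.99, a change of -0.96 ± 0.17 (adjusted p = 0.0224). DHX37, the helicase that releases U3 in yeast, read 8.997 and 8.90 against 8.20 and 7.90, a change of -0.90 ± 0.18 (adjusted p = 0.0265), and its dim second probe was at -0.60 (adjusted p = 0.140). In all 8 genes of the group both fluvastatin arrays lay below both controls, a pattern found in 33.7% of all genes. The acetyltransferase NAT10 was at -0.84 (adjusted p = 0.0310), UTP14A, which works with DHX37, was at -0.86 (adjusted p = 0.0380) and the helicase DDX52 at -0.74 (adjusted p = 0.0311).

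BMS1 itself was at -0.44 (adjusted p = 0.147) and the pseudouridine methyltransferase gene EMG1 at -0.72 (adjusted p = 0.0651). UTP14A has a retrotransposed copy, UTP14C (-0.20, adjusted p = 0.428), and BMS1 and RRP7A have pseudogenes, so their probes may take up RNA of more than 1 locus. The second probe of UTP14A was at -0.44 (adjusted p = 0.223), and the mean of its probes did not pass (-0.65, adjusted p = 0.0623).

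In the NOP14 group and the large scaffolds, 2 of 4 genes fell. NOP14 read 8.63 and 8.87 against 7.86 and 7.82, a log2 fold change of -0.91 ± 0.17 (adjusted p = 0.0238), and its second probe fell further (-1.36, adjusted p = 0.00973). UTP20, a very large HEAT-repeat protein, read 6.33 and 6.67 against 4.82 and 4.81. The limma fit of these values gave an adjusted p of 0.00853. With fluvastatin UTP20 was detected on 0 arrays, so the fall has only a bound, at least 3.11-fold lower. The bound sets the control mean against the lowest signal among detected probes and was not itself tested. The bound was 1.65-fold without background correction, 1.66-fold with the authors' values and 1.97-fold with an offset of 50. It passed the detection rule only through the controls, so a difference was built into its selection; the other 42 genes were detected on all 4 arrays.

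NOC4L, which binds NOP14, depended on the probe. Its brightest probe read 7.06 and 7.17 against 6.20 and 6.56, a change of -0.73 ± 0.19 (adjusted p = 0.0506). A second probe of nearly the same brightness was at -1.12 (adjusted p = 0.0187) and another, dim one at -0.05 (adjusted p = 0.906). KRR1, a KH-domain protein of the processome, read 5.74 and 5.75 against 6.10 and 5.77, a change of 0.19 ± 0.18 (adjusted p = 0.488). Over the list, 9 genes had more than 1 kept probe, and in 0 of them did the probes differ in sign. Of the 11 probes that were not the brightest of their gene, 4 passed the threshold.

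The pre-40S factors, which stay with the particle after the processome has come apart, held the largest falls on the list. PNO1, a KH-domain protein that shields the end of the small-subunit rRNA until its last cleavage, read 8.85 and 8.64 against 6.65 and 6.73. The log2 fold change was -2.05 ± 0.16 (adjusted p = 0.00713). BYSL (bystin) read 10.53 and 10.45 against 8.50 and 8.79, a change of -1.84 ± 0.17 (adjusted p = 0.00749), which is 3.59-fold. RRP12, a HEAT-repeat export factor, read 8.71 and 8.75 against 7.20 and 7.25, a change of -1.51 ± 0.15 (adjusted p = 0.00810). In each of these the arrays of a group lay far closer to each other than to those of the other group.

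LTV1, whose removal lets the head of the subunit mature, fell by 1.12 on the log2 scale (adjusted p = 0.0134). NOB1, the endonuclease of the last rRNA cleavage and the direct partner of PNO1, read 7.40 and 7.42 against 6.87 and 6.82. Its change of -0.57 ± 0.15 had groups apart but did not pass (adjusted p = 0.0552). TSR1, a GTPase-like factor, read 8.39 and 8.39 against 8.54 and 7.74, so that the controls lay between the fluvastatin arrays (-0.25, adjusted p = 0.558). Whether NOB1 and PNO1 differ in response was not tested, since they are different probes.

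Of the 18 genes that did not pass, 15 had a log2 fold change below 0, against 49.1% of all genes that did not pass. At an unadjusted p under 0.05, 9 were lower and UTP25 was higher, against 12.0% lower and 12.9% higher among all 9649 genes that did not pass. Their values ran from -1.07 (UTP3) to 0.64 (UTP25). A p that misses the threshold in a design with 2 arrays a group does not show that these genes kept their level.

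The presence of the E-box was set beside the fold changes as a description, since both were read over the same genes. Of 18 measured genes with CACGTG in the promoter window, 15 fell, with a median log2 fold change of -1.10 and a range from -2.05 to 0.64. Of 19 without it, 6 fell, with a median of -0.59 and a range from -1.56 to 0.19. The count without the motif depended on the setting. With no background correction, an offset of 50 or the authors' values, EMG1, NGDN, NOB1, NOC4L, RRP7A, UTP11 and UTP6 also passed as lower. All of these lack the motif, and no gene with the motif was gained there. Genes with an E-box that did not pass as lower were UTP25 (0.64), WDR46 (-0.42) and AATF (-0.35). Those that fell without one in the main setting were UTP15, DDX10, HEATR1, WDR75, IMP3 and WDR36. Among the other genes tested, 10.6% of 953 with the motif fell and 9.30% of 8668 without it.

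A further split, chosen after the positions were seen, took only motifs close behind the gene start. Of 99 other genes with the motif beginning in the first 50 bases of the gene, 25 fell (25.3%) and 11 rose, with a median of -0.22. With genes of the related lists below left out, 19 of 90 fell (21.1%). Of the 12 measured 40S assembly genes with the motif there, 10 fell, UTP25 and WDR46 being the others. MYC itself read 11.32 and 11.32 against 10.68 and 10.43, a log2 fold change of -0.77 ± 0.17 (adjusted p = 0.0339). On a list of MYC network genes, 4 of 9 measured genes rose, 1 (MYC) fell and 4 did not pass. Those that rose encode proteins that compete with MYC for MAX, MXD4 (1.98), MXI1 (1.35), MNT (1.34) and MXD1 (1.13). Of the same kind, MXD3 was at 0.47 (adjusted p = 0.101) and MGA, another MAX partner, at -0.22 (adjusted p = 0.490). MAX was at -0.37 (adjusted p = 0.516) and MLX at 0.15 (adjusted p = 0.645). Whether these changes bear on the 40S assembly genes was not tested.

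Other genes of the 40S pathway, from a list of 30, were measured in 28 cases. Of these, 6 fell, 1 rose and 21 did not pass, with a median log2 fold change of -0.39. The falls were the U3 snoRNP core proteins NOP56 (-1.67) and NOP58 (-1.29), the UTP-A subunit NOL11 (-1.07), the kinase RIOK1 (-1.41), the rRNA dimethyltransferase DIMT1 (-1.17) and the helicase DDX47 (-0.94). The methyltransferase fibrillarin, FBL, was at -0.51 (adjusted p = 0.0765) and SNU13 at -0.29 (adjusted p = 0.252), so 2 of the 4 core proteins passed. The rise was that of RIOK3 (0.90, adjusted p = 0.0246), a kinase that joins the late cytoplasmic pre-40S particle.

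Values of related gene lists are given beside these, with no test between lists. Of 44 measured 60S assembly factors, 28 fell and 0 rose, with a median log2 fold change of -0.83. Of 15 RNA polymerase I genes 5 fell and 0 rose, with a median of -0.51. Of 26 measured 40S ribosomal proteins, the parts of the subunit that these factors assemble, 1 fell and 0 rose, with a median of -0.05. Many of these probes were very bright, such as RPS15A, which read 14.01 on control replicate 1 and on both fluvastatin arrays. Whether signals this high could still show a fall was not tested. Of the dimmer probes, that of RPS7 fell (control mean 10.71) and that of RPS23 did not pass (control mean 10.13). At an unadjusted p under 0.05 (limma), 1 of the 60S assembly factors, 0 of the RNA polymerase I genes and 0 of the 40S ribosomal proteins were higher, against the 20.8% of all genes. The E-box stood in 30.0% of 40 promoters of 60S assembly factors, 16% of 25 of the other 40S pathway genes, 7.14% of 14 of RNA polymerase I and 4.00% of 25 of 40S ribosomal proteins.

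**Figure D4:**
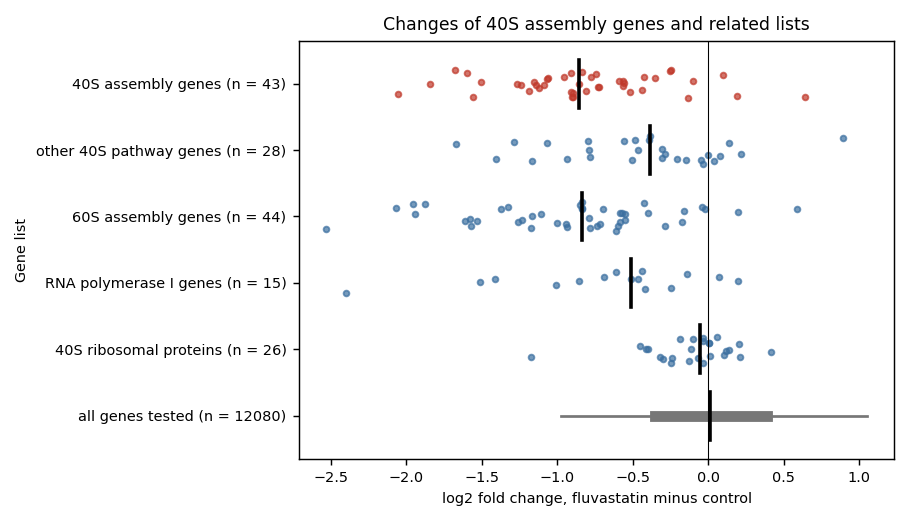
Log2 fold change, fluvastatin minus control (horizontal axis), for each gene of 5 lists (points) and for all 12080 genes tested (grey bars from the 25th to the 75th and from the 5th to the 95th percentile). Black ticks are medians, at -0.86 for the 40S assembly genes, -0.83 for 60S assembly and -0.05 for 40S ribosomal proteins; vertical spread within a list carries no meaning.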

How the data were processed

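Expression was measured on Illumina bead arrays in 5 deposited samples, 3 labelled control and 2 fluvastatin. The authors' deposited table holds an intensity per probe and sample, neither background-subtracted nor normalized as far as the values show, with its detection p-value alongside, as the file headers name it. The authors' second table holds log2 values, quantile-normalized as far as the values show; its steps are not given in the sources used here beyond R 3.1.0 in the submitters' processing notes. Of the columns per sample, 0 were left unmapped.

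For the 4 independent arrays, the neqc function (limma 3.58.1, R 4.3.3) was applied (background estimated from detection p-values, normexp, offset of 16, quantile normalization, log2). Of 47231 probes, 21986 were kept, those with a detection p under 0.05 on 2 or more arrays. Groups were compared by limma's lmFit and eBayes (two-sided); p-values were adjusted by Benjamini-Hochberg over every kept probe, with 2 residual and 3.72 prior degrees of freedom. Fold changes are on the scale of log2(value + 16), which understates changes of dim probes, and levels are not compared between probes. Each gene was represented by its kept probe of highest mean. Symbols came from the platform annotation, and 17118 probes had no single symbol. The number of arrays limits the precision.

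The genes, role groups and lists were chosen with earlier results of these data known. Values of each array are given for up to 3 genes per role group with the smallest p, and for MPHOSPH10, UTP3, PDCD11, UTP25, KRR1, NOB1 and TSR1, which were added after their values were seen. The fit was tested on simulated data. The alternatives changed the background correction, offset, normalization, filter, probe choice, variance model, the source of values and the arrays used. Promoter sequences are RefSeq's (GRCh38.p14), matched by symbol; of genes with several entries the first by position was used.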

Additional observations from a re-analysis of the deposited data

How the results depend on the processing

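Leaving out 1 array gave 5 to 30 of the 43 genes lower, 0 to 1 higher, a median of -0.95 to -0.80, 1 to 9 of the other 40S pathway genes lower and 433 to 7046 probes past the threshold, against 25, 0, -0.86, 6 and 3722. The lone array of a group is then assumed to vary like the other group. The share of all genes that passed as lower also changed with the array left out. The range of counts is therefore not a result about the 43 genes alone. Median scaling on all probes gave 15 genes lower (4.88% of all genes), 1 higher (UTP25) and a median of -0.64, or -0.86 relative to the shift of all genes. All 5 columns, which count a mean as an array, gave 35 genes lower, against 22% of all genes, and 1 higher. They also gave 13 other 40S pathway genes lower and 8927 probes. The median was -0.68 without background correction, -0.68 with the authors' values and -0.95 with median scaling on the probes kept, an alternative chosen after seeing the data. In the other alternatives with all 4 arrays, 22 to 32 genes were lower, against 4.46% to 13.5% of all genes. The 22 were among 45 genes measured with no filter on dim probes. With a detection p under 0.01 on all 4 arrays, 40 genes were measured and 29 were lower. By gene and alternative, 516 outcomes stayed the same, which includes genes that passed in neither setting. Of calls, 68 were gained, 58 were lost and 0 changed direction past the threshold. No paired analysis was possible because the independent arrays of the groups share only 1 replicate number. Dim probes, such as those of UTP20, PWP2 and RRP9, limit fold sizes.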
